A study of Mus musculus with 24 samples.

Results

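Chemokines are small secreted proteins that guide cells along gradients, and their receptors are G protein-coupled proteins on the cells that move. The genes described here are the protein-coding mouse genes named Ccl, Cxcl, Ccr or Cxcr with a number, together with Cx3cl1 and Cx3cr1, and without Ccl11, Ccl24, Ccr3 and Cxcr6. The rule uses the symbol and gene type in GENCODE M21 and no measured value, although earlier results of these data were known when it was set. The rule found 49 genes among the 39056 of the count table, 34 ligands and 15 receptors. Cxcl11 is a polymorphic pseudogene in that annotation and was therefore not included. Ccl19, Ccl21b, Ccl26 and Ccl27b had no count in any library, so 45 genes had counts. Ccl21a, Ccl21b and Ccl19, and likewise Ccl27a and Ccl27b, have near-identical copies in the mouse genome, and reads shared between copies may have been lost or split. Their values are therefore uncertain.

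RNA sequencing was performed on live cells sorted by CD45, the surface marker of blood-derived cells, from the ileum of C57BL/6 mice aged 9.0 to 10.3 weeks. Peyer's patches had been removed, and part of the detached epithelium was pooled with the digested lamina propria before sorting. Each of the 2 fractions, CD45+ and CD45-, was taken from 4 genotypes, with 3 libraries per group and 24 in all. Mice were Hoil1+/+ or Hoil1-/-, and all carried floxed Il4ra alleles, either intact (Il4ra f/f) or deleted in intestinal epithelial cells by Cre under the Villin promoter (Il4ra ΔIEC). HOIL1, encoded by Rbck1, is a subunit of the linear ubiquitin chain assembly complex (LUBAC), which acts upstream of NF-κB. The Hoil1-/- allele still yields a low amount of an N-terminal fragment, is carried by every cell type and is therefore not specific to the epithelium. IL-4Rα is the receptor chain shared by IL-4 and IL-13. The labels do not say which libraries came from the same mouse, and p-values measure the spread between these libraries only.

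In the small intestine, the epithelium can make CCL25, CCL28 and CCL20, which act on CCR9, CCR10 and CCR6 of T cells, plasma cells and B cells. CXCL13, CCL19, CCL21 and CXCL12 arrange B and T cells in lymphoid tissue through CXCR5, CCR7 and CXCR4. CCL17, CCL22, CCL1 and CCL8 act on CCR4 and CCR8 of type 2 lymphocytes, CXCL9 and CXCL10 on CXCR3 of T cells, CXCL1, CXCL2 and CXCL3 on CXCR2 of neutrophils, and CCL2, CCL7 and CCL12 on CCR2 of monocytes. Many of the inflammatory ligands are textbook targets of NF-κB.

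The promoters of 4 such ligands are shown because Cxcl1 and Cxcl10 had the smallest p-values of the interaction test in the CD45- fraction, and because Cxcl2 and Cxcl3 encode further ligands of CXCR2 and lie near Cxcl1 on chromosome 5. Each run holds the 250 bases before the RefSeq start (GRCm38.p6), 5′ to 3′ on the strand of the gene, and capitals mark matches to the κB consensus on either strand. The windows are chr5:90890995-90891244 (plus strand) for Cxcl1, chr5:90903649-90903898 (plus) for Cxcl2, chr5:90785851-90786100 (plus) for Cxcl3 and chr5:92348890-92349139 (minus) for Cxcl10.
Cxcl1: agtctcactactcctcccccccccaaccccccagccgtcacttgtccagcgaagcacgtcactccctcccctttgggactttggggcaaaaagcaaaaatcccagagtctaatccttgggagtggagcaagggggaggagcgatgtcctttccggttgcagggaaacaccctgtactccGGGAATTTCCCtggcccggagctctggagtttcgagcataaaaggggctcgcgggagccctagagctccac
Cxcl2: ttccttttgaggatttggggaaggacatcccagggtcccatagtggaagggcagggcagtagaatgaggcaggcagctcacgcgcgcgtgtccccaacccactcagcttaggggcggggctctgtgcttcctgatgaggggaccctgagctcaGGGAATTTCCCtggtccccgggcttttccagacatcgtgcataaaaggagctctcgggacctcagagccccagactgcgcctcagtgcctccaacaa
Cxcl3: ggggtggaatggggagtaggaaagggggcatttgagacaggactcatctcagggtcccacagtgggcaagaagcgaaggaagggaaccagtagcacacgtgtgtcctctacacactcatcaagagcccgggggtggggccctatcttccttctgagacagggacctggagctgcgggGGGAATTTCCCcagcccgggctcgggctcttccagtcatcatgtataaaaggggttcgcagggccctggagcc
Cxcl10: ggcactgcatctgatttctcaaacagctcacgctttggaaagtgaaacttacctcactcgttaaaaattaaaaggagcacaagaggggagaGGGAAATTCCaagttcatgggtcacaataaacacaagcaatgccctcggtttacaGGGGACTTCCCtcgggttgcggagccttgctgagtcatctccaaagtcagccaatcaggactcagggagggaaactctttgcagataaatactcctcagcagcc
Cxcl1, Cxcl2 and Cxcl3 held the same 11 bases, GGGAATTTCCC, which hold overlapping matches on the 2 strands and begin 71, 97 and 73 bases before the respective start. Cxcl10 held GGGAAATTCC, starting 159 bases before its start, and GGGGACTTCCC, starting 104 bases before it. RefSeq promoters were at hand for 37 of the 49 genes. A κB match lay in those of 9 genes, namely Ccl1, Ccl9, Ccl20, Ccr1, Ccr6, Cxcl1, Cxcl2, Cxcl3 and Cxcl10, while 8.23% of all 27025 genes with a promoter had such a match. Cxcl15, which lies between Cxcl3 and Cxcl1, had no match. Ccl3, Ccl22, Cx3cl1 and Cxcl9, also on the list of NF-κB targets, had none either, nor had Ccl25. A match is a description of the letters only. No promoter was given for Ccl2, Ccl4, Ccl5, Ccl7, Ccl26, Ccr7, Ccr10, Cxcl5, Cxcl16, Cxcl17 and Cxcr5.

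Libraries held 14.9 to 76.8 M counts in the CD45+ fraction and 6.03 to 68.3 M in the CD45- fraction. Levels are CPM, the counts of a gene per M (mega) counts of its library, after TMM scaling over the 24 libraries, and a floor of 3 counts corresponds to 0.0365 to 0.410 CPM in single CD45- libraries. The libraries were made by PCR without molecular identifiers, so floors cover counting error only. Rbck1 ranged from 72.9 to 159 CPM over the 12 Hoil1+/+ libraries, whereas the 12 Hoil1-/- libraries had at most 15.9 CPM. Ptprc, which encodes CD45, was at 250.2 to 757 CPM in CD45+ libraries and at most 16.2 CPM in CD45- libraries. Il4ra, summed over all its exons, did not separate f/f from ΔIEC in the CD45- fraction (55.9 to 156 against 45.0 to 128 CPM). Following the methods of the study, 3 libraries were left out of the fits: from the CD45+ fraction replicate 1 of Hoil1-/- Il4ra f/f as well as replicate 3 of Hoil1-/- Il4ra ΔIEC, and from the CD45- fraction replicate 3 of Hoil1-/- Il4ra f/f. Ranges below are over the fitted libraries, and values of the left-out libraries are named as such. Cell composition varied widely within groups: the summed level of 8 epithelial markers ran from 914 to 35254 CPM over the fitted CD45- libraries, and that of 8 B cell markers from 257 to 1639 CPM over the fitted CD45+ libraries. In such bulk samples fewer cells of a type and less RNA per cell cannot be told apart.

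**Figure D1:**
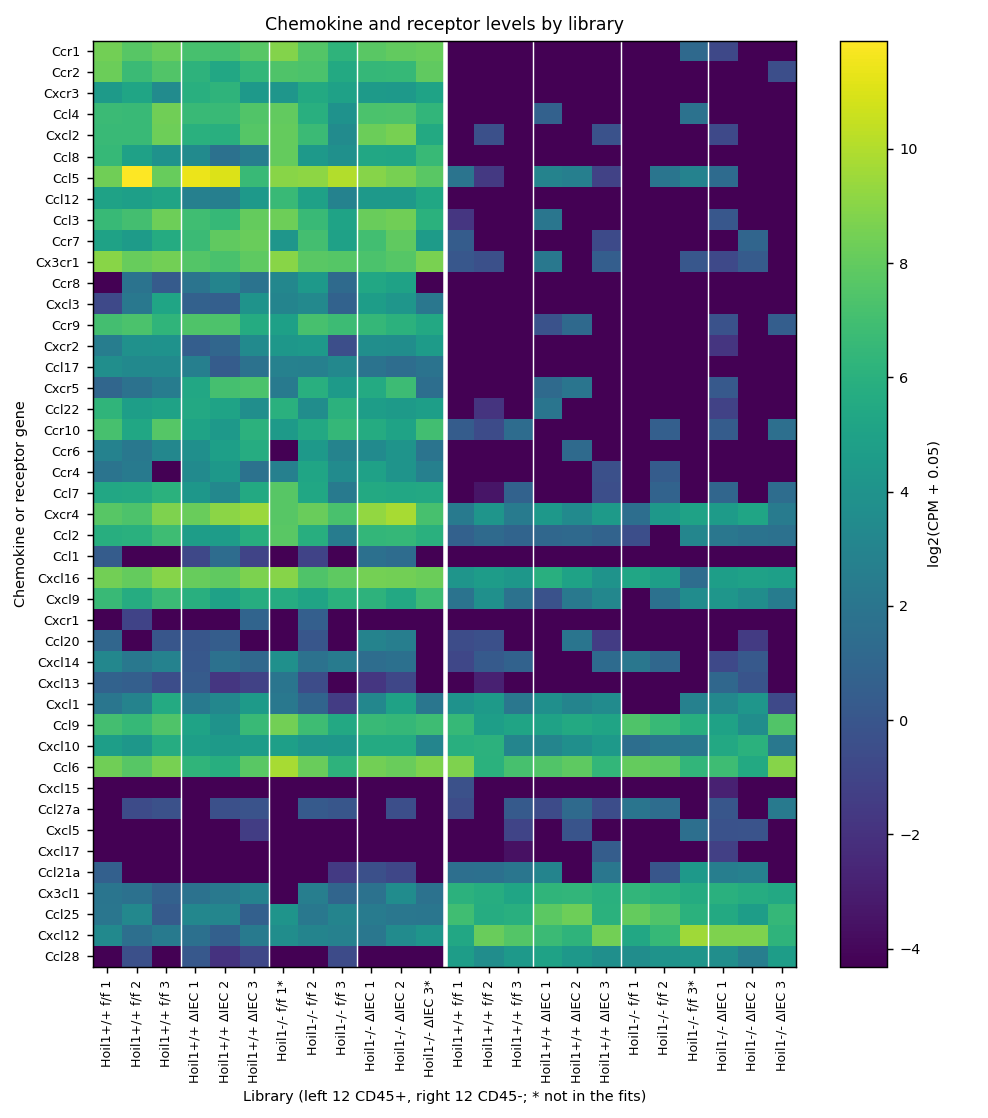
Levels of 44 chemokine and receptor genes with a count, as log2(CPM + 0.05), in the 24 libraries, CD45+ on the left and CD45- on the right, with libraries left out of the fits marked by an asterisk. Receptors and most ligands fill the left side, while Ccl28, Cxcl12, Ccl25 and Cx3cl1 at the bottom are higher on the right and Ccl6 and Ccl9 are present on both.

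Chemokine receptors were transcripts of the CD45+ fraction. Of the 15 receptor genes, 14 were higher in CD45+ than in CD45- libraries and none was higher in CD45- libraries (edgeR quasi-likelihood test over all genes, adjusted p under 0.05). Of the 29 ligands tested, 16 were higher in CD45+ and 5 in CD45- libraries. In all, 44 of the 49 genes passed the filter on low counts, 30 were higher in CD45+ and 5 higher in CD45- libraries. Among all 18778 genes tested, 24.5% were higher in CD45+ and 25.1% higher in CD45- libraries. For 24 of the genes every CD45+ library lay above every CD45- library, and for 4 every CD45- library lay above every CD45+ library, against 8.49% and 9.4% of all genes.

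Receptors of monocytes and macrophages were low in CD45- libraries. Ccr1, which binds CCL3 and CCL5 among others, was at 75.02 to 346 CPM with a median of 203 in the 10 CD45+ libraries, and had counts in 1 of 11 CD45- libraries, at 0.510 CPM. Ccr2, the receptor that draws monocytes from blood, ran from 42.6 to 308 CPM and was seen in 1 CD45- library, at 0.683 CPM. Cx3cr1, expressed by intestinal macrophages, was at 151 to 512 CPM against at most 4.42 CPM. The groups did not overlap for any of these genes.

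Lymphocyte receptors were likewise low in the CD45- fraction. Cxcr3, carried by effector T cells, was at 11.2 to 73.7 CPM and had no count in CD45- libraries, which made it at least 3145-fold higher in the CD45+ fraction (floor of 3 counts over the fraction; edgeR adjusted p = 1.73e-07). Ccr9, which homes T cells to the small intestine, had a mean of 117 ± 43.5 CPM (SD, n = 10) against 0.475 CPM, and Ccr10, a receptor of IgA plasma cells, 71.8 ± 55.6 CPM against 0.920 CPM. Ccr8 was at 0 to 42.5 CPM with no CD45- count, at least 795-fold higher (edgeR adjusted p = 1.44e-04), although 1 CD45+ library was also at 0. Ccr6, which recruits B cells and dendritic cells to CCL20, was at 4.36 to 52.7 CPM and Cxcr2, the neutrophil receptor, at 0.703 to 21.3 CPM, each with counts in 1 CD45- library. Cxcr1, the only receptor that did not pass the test, had counts in 3 CD45+ libraries of at most 1.82 CPM.

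Cxcr4, the receptor of CXCL12, differed from the other receptors in being measured in every CD45- library. It was at 151 to 878 CPM (mean 426 ± 247, SD, n = 10) in CD45+ and at 2.83 to 37.5 CPM in CD45- libraries, a log2 difference of 4.74 ± 0.47 (SE, edgeR adjusted p = 4.75e-07). The lowest CD45+ library stayed above the highest CD45- library.

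Among ligands higher in CD45+ libraries, Ccl5, made by cytotoxic and intraepithelial T cells, was the most abundant chemokine per length of exon, with a mean of 1232 RPKM, the CPM divided by the exon length in kilobases. Cxcr4 followed with 235, Ccl3 with 233, Ccl4 with 200.1 and Ccl6 with 126 RPKM. Ccl5 varied widely and was at 337, 3797 and 284 CPM in Hoil1+/+ Il4ra f/f, at 2755, 2058 and 101 in Hoil1+/+ Il4ra ΔIEC, at 572 and 1045 in Hoil1-/- Il4ra f/f and at 488 and 386 in Hoil1-/- Il4ra ΔIEC libraries. The 3 libraries with the highest levels were also the 3 with the highest sums of 8 intraepithelial and cytotoxic lymphocyte markers (4587 to 9789 CPM, against 376 to 3179 CPM in the other fitted libraries), and the part of cell number in this spread was not tested. Together the genes took 0.171% to 0.633% of all counts of a CD45+ library, and 0.0734% to 0.117% of a CD45- library. Ccl3 had a mean of 179 ± 111 CPM and Cxcl16 of 317 ± 98.3 CPM (SD, n = 10).

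The macrophage ligands Ccl8 and Ccl12 had no count in CD45- libraries and were at least 2295-fold and 1915-fold higher in CD45+ libraries. Ccl17, a CCR4 ligand made by dendritic cells, was at least 626-fold higher. Cxcl3 was at least 875-fold higher, with 0.549 to 37.7 CPM. Ccl4 was at 15.6 to 327 CPM and was seen in 1 CD45- library, at 1.57 CPM. Cxcl2 was at 11.3 to 372 CPM against at most 0.790 CPM. The monocyte ligands Ccl2 and Ccl7 had means of 57.6 and 36.2 CPM against 2.16 and 0.802 CPM, with no overlap between fractions for either. Cxcl13, the CXCR5 ligand, was below 2 CPM in every fitted CD45+ library, and 3 CD45- libraries had counts. Cxcl16, the membrane-bound ligand of CXCR6, was clearly measured on both sides: 317 ± 98.3 CPM in CD45+ and 29.5 ± 12.4 CPM (SD, n = 11) in CD45- libraries, a log2 difference of 3.37 ± 0.23 (SE, edgeR adjusted p = 9.10e-09). Cxcl9 was at 30.6 to 105 against 0 to 18.1 CPM, 3.51 ± 0.53 on the log2 scale (edgeR adjusted p = 3.94e-05).

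The ligands higher in the CD45- fraction were Cx3cl1, Cxcl12, Ccl25, Ccl28 and Ccl21a. Cx3cl1, the membrane-anchored ligand of CX3CR1, was the most even of them, with 36.3 to 82.2 CPM (mean 62.9 ± 14.8, SD, n = 11) against 1.61 to 11.9 CPM, and fell by 3.78 ± 0.30 on the log2 scale from CD45- to CD45+ libraries (edgeR adjusted p = 4.92e-08). Ccl25 was at 131 ± 100.4 CPM against 5.55 ± 3.01 CPM, 23.7-fold higher. Ccl28, the CCR10 ligand of mucosal epithelium, was at 6.00 to 32.4 CPM in CD45- and at most 1.07 CPM in CD45+ libraries, 58.3-fold higher by mean CPM. For these 3 genes and Cxcl12 the fractions did not overlap.

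Cxcl12, a ligand of stromal and endothelial cells, had a mean of 192 ± 154 CPM (SD, n = 11) in CD45- and 5.81 ± 3.22 CPM (SD, n = 10) in CD45+ libraries. Ccl21a, a ligand of lymphatic endothelium, was low: it was at 0 to 7.86 CPM with counts in 8 of 11 CD45- libraries, and at most 1.53 CPM in CD45+ libraries (edgeR adjusted p = 0.018). That call was lost without any of 4 libraries: CD45+ Hoil1-/- Il4ra f/f replicate 2 (edgeR adjusted p = 0.060), CD45+ Hoil1-/- Il4ra ΔIEC replicate 1 (0.064) or replicate 2 (0.069), and CD45- Hoil1-/- Il4ra f/f replicate 2 (1.00). The left-out CD45- Hoil1-/- Il4ra f/f replicate 3 had the highest level, 21.8 CPM.

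**Figure D2:**
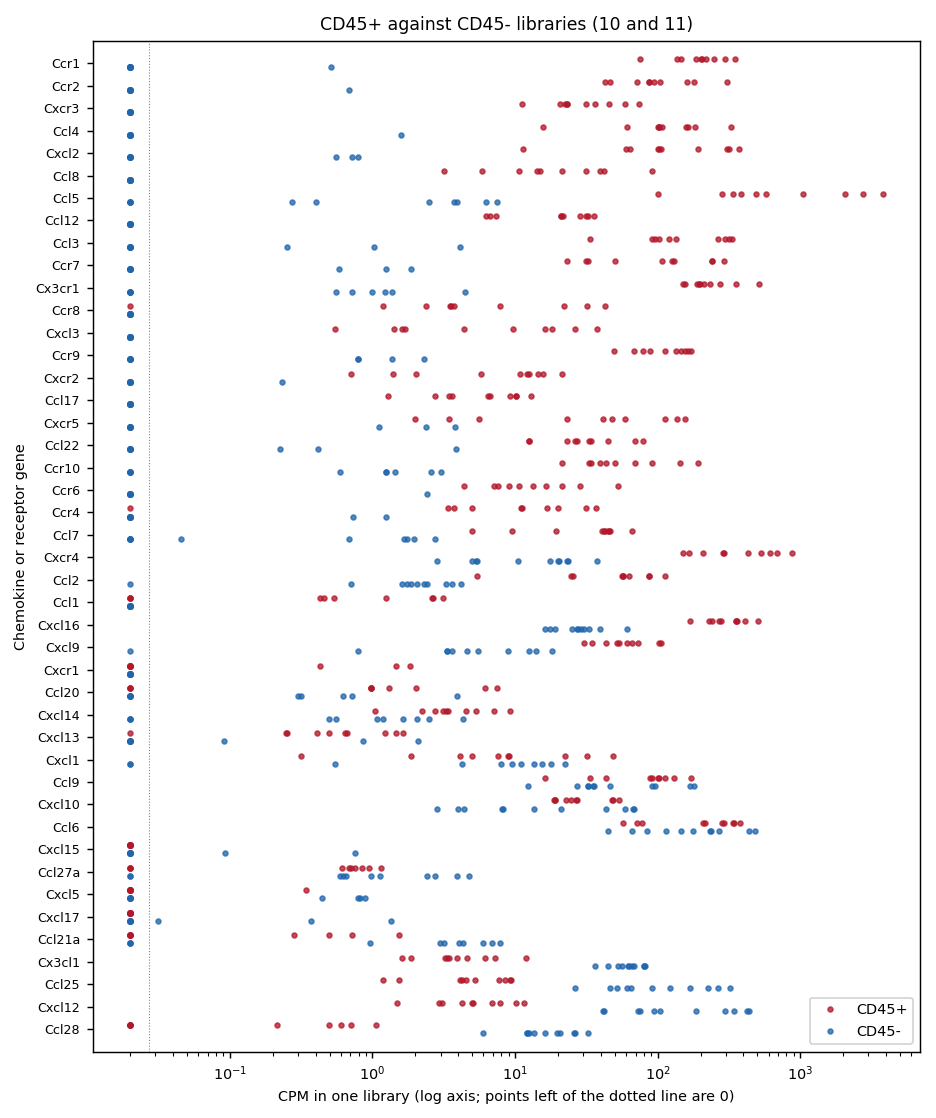
CPM of each of 44 genes in single libraries on a log axis, 10 fitted CD45+ libraries in red and 11 fitted CD45- libraries in blue, with libraries at 0 drawn left of the dotted line and genes ordered by the ratio of mean CPM. All CD45+ points of Ccr1 lie between 75.02 and 346 CPM, while the points of Ccl6 and Cxcl10 overlap and those of Ccl28 and Cxcl12 separate in the other direction.

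A difference between fractions was not detected for 9 of the tested genes. Ccl6 and Ccl9, ligands of CCR1, were abundant on both sides. Ccl6 was at 57.5 to 378 CPM with a median of 249 in CD45+ and at 45.2 to 484 CPM with a median of 176 in CD45- libraries, a log2 difference of 0.0066 ± 0.44 (SE, edgeR adjusted p = 1.00). With 116 RPKM it was the most abundant chemokine of the CD45- fraction per length, ahead of Cxcl12 with 23.5 and Ccl9 with 22.7 RPKM. The length is the union of all annotated exons, 1795 bases for Ccl6 but 8176 for Cxcl12. By mean CPM these 2 genes were close, at 209 and 192 CPM. The sum of 8 macrophage and dendritic cell markers was at 3787 to 12732 CPM in CD45+ and at 15.6 to 71.1 CPM in CD45- libraries. Cxcl10 was at 18.6 to 53.6 against 2.83 to 68.6 CPM (log2 difference 0.79 ± 0.40, edgeR adjusted p = 0.12). Cxcl14, Ccl20 and Ccl27a were below 10 CPM in every library of both fractions save Cxcl14 in the left-out CD45+ Hoil1-/- Il4ra f/f replicate 1 (14.2 CPM), and Cxcl5, Cxcl17 and Cxcr1 below 2 CPM in every fitted library. Cxcl1 was called higher in CD45+ libraries (edgeR adjusted p = 0.024), but its libraries overlapped, with means of 13.98 ± 15.6 (SD, n = 10) and 9.34 ± 7.63 CPM (SD, n = 11), and 1 CD45- group was at 0.

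Of 25 other genes of the pathway, fixed as a list, 15 were higher in CD45+ and 7 in CD45- libraries, where 24.5% and 25.1% of all genes were. Of the atypical receptors, which bind chemokines without signalling through G proteins, Ackr1 had means of 0.0614 CPM in CD45+ and 96.3 CPM in CD45- libraries, Ackr3, which takes up CXCL12, 4.85 and 124.7 CPM, and Ackr4, which takes up CCL25, CCL19 and CCL21, 1.26 and 49.8 CPM. Ccrl2, which presents chemerin, had the opposite direction, with means of 188 and 27.6 CPM. Madcam1, the gut endothelial addressin, had means of 1.71 and 307 CPM, and its lymphocyte partner Itgb7 means of 460.4 and 3.86 CPM. Ackr2, Arrb1 and S1pr1 were also higher in CD45- libraries.

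Whether HOIL1 deficiency or loss of IL-4Rα in the epithelium altered these genes was tested separately in each fraction. No chemokine or receptor gene passed the threshold in any of the 10 genotype comparisons (edgeR quasi-likelihood test, smallest adjusted p = 0.12). The test could be applied to 42 of the 49 genes in the CD45+ and 28 in the CD45- fraction. Few genes of any kind passed it: for Hoil1-/- against Hoil1+/+, averaged over Il4ra genotypes, 0.00587% of 17029 genes in the CD45+ and 0.0182% of 16453 genes in the CD45- fraction. At an unadjusted p under 0.05, 5 of the 42 genes differed in the CD45+ fraction, where 5.85% of all genes did, and 1 of the 28 in the CD45- fraction, where 5.28% did. None of the tested chemokine genes had Hoil1-/- and Hoil1+/+ libraries that did not overlap in either fraction, as 1.04% of all genes did in the CD45+ and 0.158% in the CD45- fraction. In the CD45- fraction 0.0365% of all genes passed the adjusted test in f/f mice and 0.00608% in ΔIEC mice. In simulated data with the same design, the test of Hoil1 averaged found 55.0% of genes changed 4-fold in the CD45+ and 46.0% in the CD45- comparison. Of genes with a log2 change of 5 it found 70.0% and 68.0%. Differences of either size could therefore be missed. The other genotype comparisons were not simulated.

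In CD45+ libraries, the receptors of type 2 lymphocytes were among the genes with the smallest p-values between Hoil1 genotypes. Ccr8 was at 0, 3.52 and 1.18 CPM in Hoil1+/+ Il4ra f/f and at 3.73, 7.81 and 3.54 CPM in Hoil1+/+ Il4ra ΔIEC libraries, against 22.2 and 2.36 CPM in Hoil1-/- Il4ra f/f and 42.5 and 32.1 CPM in Hoil1-/- Il4ra ΔIEC libraries. Of the 4 fitted Hoil1-/- libraries, 3 lay above all Hoil1+/+ libraries and the other lay among them. The log2 difference was 2.91 ± 0.91 (SE, edgeR adjusted p = 0.78). The left-out Hoil1-/- libraries were at 8.84 (f/f) and 0 CPM (ΔIEC), and with them the difference was 2.55 ± 1.21.

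Ccr4, the receptor of CCL17 and CCL22, had a similar order. Its levels were 3.72, 5.00 and 0 CPM in Hoil1+/+ Il4ra f/f, 10.9, 20.0 and 3.38 in Hoil1+/+ Il4ra ΔIEC, 37.1 and 11.2 in Hoil1-/- Il4ra f/f and 31.6 and 16.8 CPM in Hoil1-/- Il4ra ΔIEC libraries, with 6.73 and 6.66 CPM in the left-out Hoil1-/- libraries. The Hoil1 genotypes overlapped (log2 difference 2.04 ± 0.87, SE, edgeR adjusted p = 0.78). Both receptors moved with 8 markers of group 2 innate lymphoid cells (ILC2), all detected in each Hoil1 genotype but Il5 at 0 in the Hoil1+/+ Il4ra f/f libraries, whose sum was at 34.3 to 131 CPM in Hoil1+/+ and 150.5 to 665 CPM in fitted Hoil1-/- libraries. The left-out Hoil1-/- libraries had ILC2 sums of 148 (f/f) and 119.7 CPM (ΔIEC), the latter within the Hoil1+/+ range. Of the markers, Il5, Nmur1, Klrg1 and Il17rb were reported by the study as different between Hoil1 genotypes in these CD45+ data. The sum is therefore no independent measure of ILC2 number. For Hoil1 averaged in this fraction, the quasi-likelihood test used here called 1 of 17029 genes, whereas edgeR's likelihood ratio test called 103. The part of ILC2 number in the 2 receptors was not tested.

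Among the ligands of this axis, Ccl17 and Ccl22 had lower and Ccl1 and Ccl8 higher fitted levels in Hoil1-/- libraries. Ccl17 was at 12.9, 10.2, 10.1, 6.43, 1.28 and 3.42 CPM in the Hoil1+/+ and at 6.72, 9.29, 3.63 and 2.73 CPM in the Hoil1-/- libraries, with a log2 difference of -0.36 ± 0.43 (SE, edgeR adjusted p = 0.93). Ccl22 differed by -0.26 ± 0.52 and Ccl8 by 0.61 ± 0.47, or by 2.16 ± 0.73 with the left-out libraries. Ccl1 differed by 0.14 ± 1.73, or by -0.43 ± 1.75 with the left-out libraries. None of the 6 genes of the type 2 list passed the test, 4 had a higher and 2 a lower fitted level in Hoil1-/- libraries, and their median was 0.38, against -0.036 over all genes with counts in every group.

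Cxcr5 (1.49 ± 0.45 on the log2 scale, and 0.97 ± 0.73 with the left-out libraries) and Cx3cr1 were also among the genes with the smallest p-values for Hoil1. Cx3cr1 was at 151 to 512 CPM in Hoil1+/+ and at 156 to 213 CPM in fitted Hoil1-/- libraries. Its log2 difference was -0.51 ± 0.22 and turned to 0.055 ± 0.32 with the left-out libraries, which were at 517 and 396 CPM.

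Cxcr5, Ccr7 and Cxcr4, the receptors that position lymphocytes in lymphoid tissue (CXCR5 in B cell follicles, CCR7 in T cell zones), had the smallest p-values between Il4ra genotypes. Cxcr5 was at 1.98, 3.44 and 5.55 CPM in Hoil1+/+ Il4ra f/f and at 59.2 and 23.002 CPM in Hoil1-/- Il4ra f/f libraries, against 41.7, 138 and 156 CPM in Hoil1+/+ Il4ra ΔIEC and 47.7 and 112 CPM in Hoil1-/- Il4ra ΔIEC libraries. The 3 lowest libraries were thus the Hoil1+/+ Il4ra f/f libraries, and the Il4ra genotypes overlapped through the Hoil1-/- Il4ra f/f libraries. The log2 difference, ΔIEC minus f/f, was 2.96 ± 0.49 (SE, edgeR adjusted p = 0.18). The left-out libraries were low in both genotypes, at 5.14 (f/f) and 2.84 CPM (ΔIEC), and with them the difference was 2.90 ± 0.77.

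Ccr7, the receptor of CCL19 and CCL21, was at 23.3 to 129 CPM in f/f and 107 to 293 CPM in ΔIEC libraries (log2 difference 1.90 ± 0.45, SE, edgeR adjusted p = 0.24), and at 18.1 (f/f) and 23.7 CPM (ΔIEC) in the left-out libraries. Cxcr4 was at 151 to 432 against 289 to 878 CPM (1.34 ± 0.36, edgeR adjusted p = 0.29), and at 206 and 146 CPM in the left-out libraries, of which the latter, from a ΔIEC mouse, lay below every f/f library. By edgeR's likelihood ratio test Cxcr5 and Ccr7 passed the threshold, as did 1.18% of all genes, and by DESeq2 all 3 did, as did 1.81% of all genes. The sum of 8 B cell markers, all detected in both genotypes, was at 257 to 884 CPM in f/f and 506 to 1639 CPM in ΔIEC libraries, with 266 and 459 CPM in the left-out libraries, and the part of B cell number in these 3 receptors was not tested. In the f/f libraries alone, Cxcr5 differed by 3.49 ± 0.67 on the log2 scale between Hoil1-/- and Hoil1+/+ libraries (SE, edgeR adjusted p = 0.41), and in the ΔIEC libraries the genotypes overlapped. The B cell sum was at 257 to 716 CPM in Hoil1+/+ Il4ra f/f and at 849 and 884 CPM in the fitted Hoil1-/- Il4ra f/f libraries. The interaction of the 2 genotypes was -3.98 ± 0.95 for Cxcr5 (SE, edgeR adjusted p = 0.59).

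**Figure D3:**
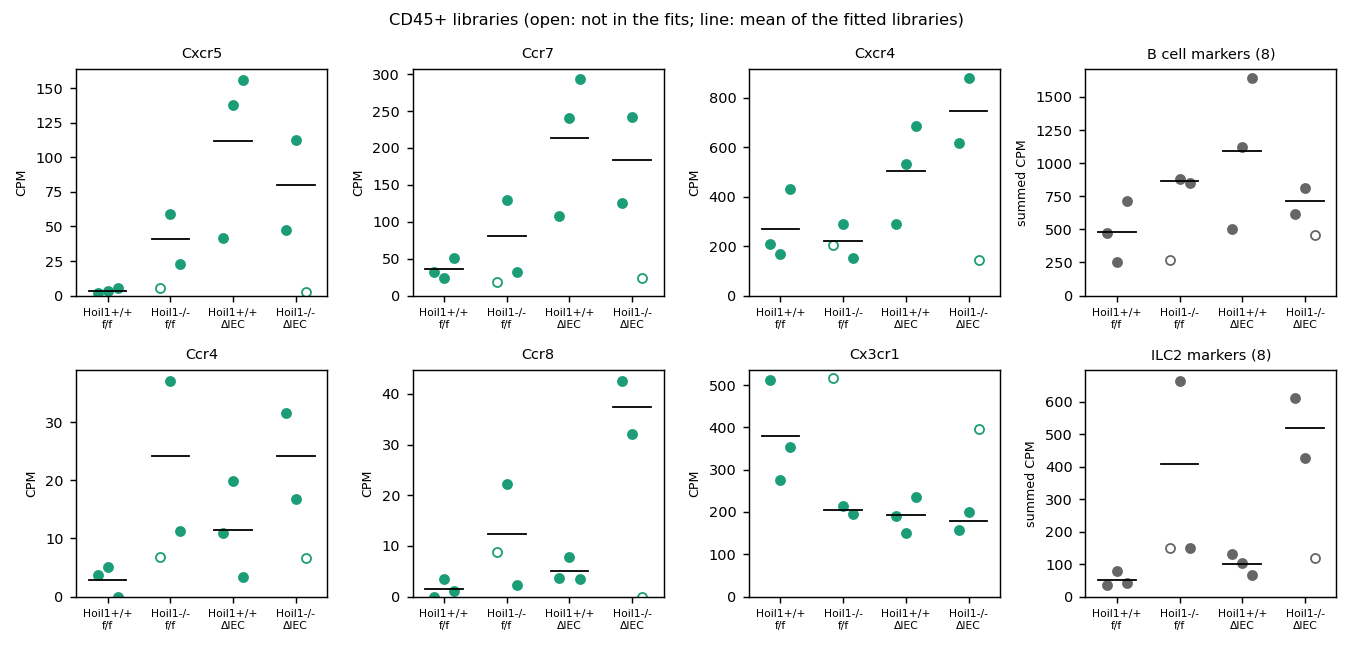
CPM of 6 receptors and summed CPM of 8 B cell and 8 ILC2 markers in the 12 CD45+ libraries by genotype, each point being a library, open points the libraries left out of the fits and lines the mean of the fitted libraries. Cxcr5 lies at or below 5.55 CPM in Hoil1+/+ mice with intact Il4ra and Ccr8 is highest in the fitted Hoil1-/- Il4ra ΔIEC libraries, at 42.5 and 32.1 CPM.

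In the other direction, Ccl17 was at 10.1 to 12.9 CPM and 6.72 to 9.29 CPM in the Hoil1+/+ and Hoil1-/- f/f libraries and at 1.28 to 6.43 and 2.73 to 3.63 CPM in the corresponding ΔIEC libraries, so that the Il4ra genotypes did not overlap, also with the left-out libraries (log2 difference -1.44 ± 0.43, SE, edgeR adjusted p = 0.34). Among the fitted libraries, Ccl17 and Cxcl14 were the 2 genes of 42 with such a separation, which 2.17% of all genes had. Both kept it with the left-out libraries, for which the share over all genes was not computed. Ccr10 was at 39.6 to 192 CPM in f/f and 21.2 to 68.9 CPM in ΔIEC libraries (-1.13 ± 0.46, edgeR adjusted p = 0.45), while the sum of 8 plasma cell markers was at 20334 to 50250.5 and 9142 to 16783 CPM. The left-out libraries had the reverse order, with 23.01 (f/f) and 125 CPM (ΔIEC) of Ccr10 and plasma cell sums of 15788 and 41108 CPM, and with them the Ccr10 difference was -0.59 ± 0.49.

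The fitted Hoil1 differences of most chemokine genes in CD45+ libraries were below 0 in f/f mice and above 0 in ΔIEC mice, while no gene passed the adjusted interaction test. In f/f mice, 28 of the 39 genes with counts in every group had a lower and 11 a higher level in Hoil1-/- libraries, with a median log2 difference of -0.79, against -0.0078 over all genes. In ΔIEC mice, 27 were higher and 12 lower, with a median of 0.51 against -0.047. At an unadjusted p under 0.05, 9 of the 42 genes differed in f/f mice, where 5.27% of all genes did, and 4 in ΔIEC mice, where 6.08% did. At the same threshold the interaction was found for 14 of the 42 genes, 11 upward and 3 downward, where 7.01% of all genes had it. Among the 11 were Ccl2, Ccl3, Ccl4, Ccl6, Ccl8, Ccr1, Cxcl1, Cxcl2, Cxcl10 and Cxcl16, of which several are products of macrophages, and the 3 were Cxcr5, Ccr6 and Cxcr3.

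Each Hoil1-/- group has 2 fitted libraries in this fraction. Ccl8 was at 91.3, 31.6 and 15.1 CPM in Hoil1+/+ Il4ra f/f and 21.5 and 14.3 CPM in Hoil1-/- Il4ra f/f libraries, but at 10.7, 3.20 and 5.90 CPM in Hoil1+/+ Il4ra ΔIEC and 41.9 and 39.2 CPM in Hoil1-/- Il4ra ΔIEC libraries. It was higher in every Hoil1-/- than in every Hoil1+/+ ΔIEC library, and the interaction was 3.98 ± 0.99 (SE, edgeR adjusted p = 0.59). Including the left-out libraries, at 264 and 97.7 CPM the highest of all, the interaction of Ccl8 was 2.13 ± 1.41. Over the 39 genes the median in f/f then moved to -0.15, with 20 genes lower and 19 higher, and that in ΔIEC was 0.51. The f/f median was -0.46 without Hoil1+/+ Il4ra f/f replicate 1 and -0.34 without Hoil1-/- Il4ra f/f replicate 3, and the ΔIEC median was 0.29 without Hoil1-/- Il4ra ΔIEC replicate 2. Hoil1-/- Il4ra f/f replicate 3 had the lowest levels of Ccl2 (5.45 CPM), Ccl3 (33.3), Ccl4 (15.6), Cxcl2 (11.3) and Cxcl1 (0.317 CPM) in the fraction.

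Macrophage and dendritic cell markers also had lower sums in the fitted Hoil1-/- libraries in f/f and higher sums in ΔIEC mice. All 8 were detected in every group, and their sum was at 7093 to 12732 CPM in Hoil1+/+ Il4ra f/f, 5806 and 6179.6 in Hoil1-/- Il4ra f/f, 3787 to 6047 in Hoil1+/+ Il4ra ΔIEC and 6334 and 6548 CPM in Hoil1-/- Il4ra ΔIEC libraries, with 15889 and 10981 CPM in the left-out libraries. Their part in the pattern was not tested. In ΔIEC mice, 14 of the 42 genes were higher in every Hoil1-/- than in every Hoil1+/+ library and 1 was lower, and in f/f mice 3 were higher and 11 lower, where 27.5% and 16.7% of all genes were separated in either direction. With the left-out libraries these counts were 7 and 1 in ΔIEC and 1 and 1 in f/f mice, where 11.1% and 6.19% of all genes were separated.

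**Figure D4:**
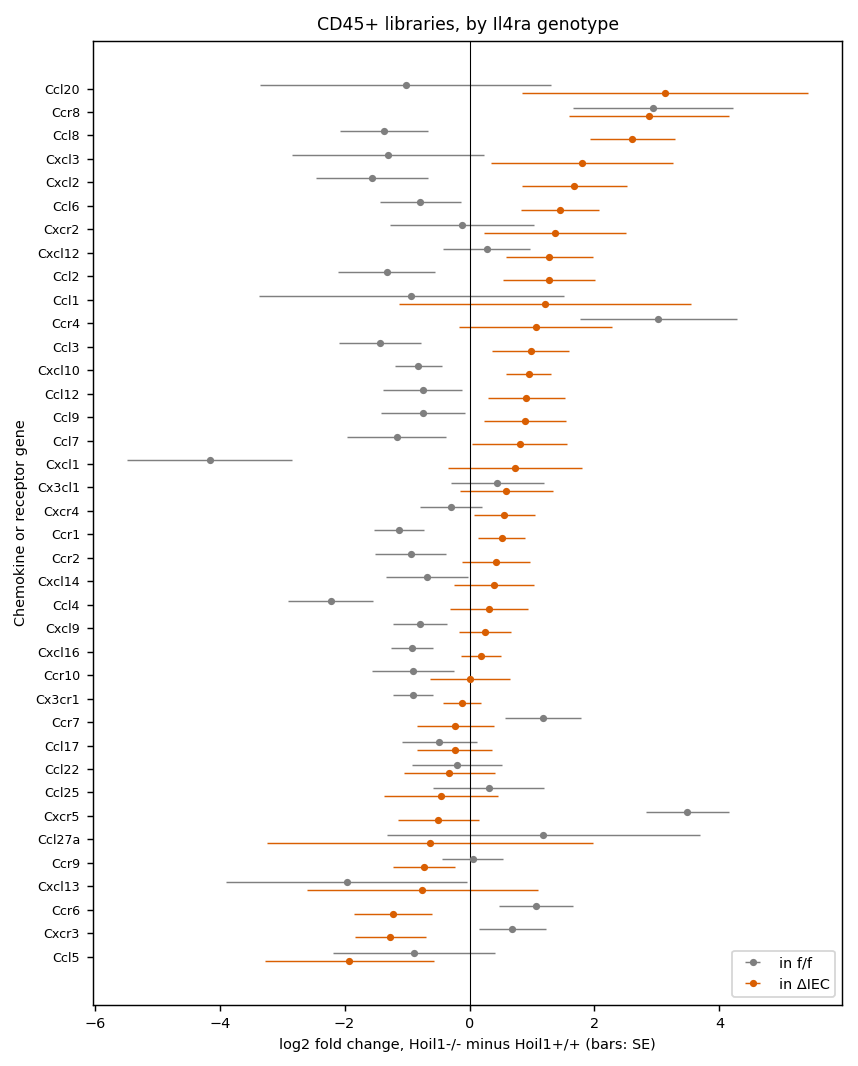
Fitted log2 fold change of Hoil1-/- against Hoil1+/+ CD45+ libraries with its SE, in Il4ra f/f (grey) and Il4ra ΔIEC mice (orange), for 38 of the genes with counts in every group, ordered by the value in ΔIEC. Of the grey points 27 lie left of 0 and of the orange points 26 lie right of it, while Ccr8 and Ccr4 are right of 0 in both and no point passed the adjusted test.

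In the CD45- fraction Cxcl1, the neutrophil chemokine, had the smallest p-value for Hoil1. It was at 15.5, 22.3 and 4.22 CPM in Hoil1+/+ Il4ra f/f and at 13.7, 8.01 and 11.04 CPM in Hoil1+/+ Il4ra ΔIEC libraries. Both fitted Hoil1-/- Il4ra f/f libraries were at 0, and the Hoil1-/- Il4ra ΔIEC libraries were at 9.46, 18.005 and 0.547 CPM. In f/f mice Cxcl1 was thus at least 174-fold lower in the fitted Hoil1-/- libraries (floor of 3 counts over the group, edgeR adjusted p = 0.12). The left-out library of that group was at 6.91 CPM, which lies among the Hoil1+/+ libraries, and with it the log2 difference in f/f was -2.55 ± 1.69 (edgeR adjusted p = 0.67). The interaction had an edgeR adjusted p of 0.12, and 0.039 without CD45- Hoil1+/+ Il4ra ΔIEC replicate 3. Without that library 7.48% of all genes passed the adjusted interaction test, while 0 passed with it. At an unadjusted p under 0.05, 7 of the 28 genes had an interaction in this fraction, where 20.7% of all genes did.

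Cxcl10, the interferon-induced ligand of CXCR3, was at 59.0, 68.6 and 8.28 CPM in Hoil1+/+ Il4ra f/f and at 2.83 and 3.99 CPM in the fitted Hoil1-/- Il4ra f/f libraries, with 4.46 CPM in the left-out library. The fitted Hoil1-/- libraries lay below all 3 Hoil1+/+ libraries, and 33.9% of all genes had such a separation in either direction among the fitted libraries. The left-out library also lay below all 3, and the share over all genes with that library was not computed. The log2 difference was -3.71 ± 1.11 (SE, edgeR adjusted p = 0.31), and -3.55 ± 0.91 with the left-out library. In ΔIEC mice the order was 8.16, 13.6 and 21.1 CPM in Hoil1+/+ and 43.1, 66.8 and 4.37 CPM in Hoil1-/- libraries, which overlapped. The interaction was 5.11 ± 1.39 (SE, edgeR adjusted p = 0.13) and 4.94 ± 1.23 with the left-out library.

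Ccl25, the CCR9 ligand of enterocytes, had the opposite interaction, -3.37 ± 0.94 on the log2 scale (SE, edgeR adjusted p = 0.13). The edgeR adjusted p was 0.029 without CD45- Hoil1+/+ Il4ra ΔIEC replicate 3, a fit in which 7.48% of all genes passed. Ccl25 was at 122, 51.8 and 60.9 CPM in Hoil1+/+ Il4ra f/f, 266 and 169 in Hoil1-/- Il4ra f/f, 224, 324 and 65.2 in Hoil1+/+ Il4ra ΔIEC and 46.6, 26.2 and 90.9 CPM in Hoil1-/- Il4ra ΔIEC libraries. The left-out Hoil1-/- Il4ra f/f library was at 66.2 CPM. The 5 fitted libraries above 100 CPM were also the 5 with the highest epithelial marker sums, 14636 to 35254 CPM, while the sums of the other fitted libraries were at 914 to 12690.1 CPM. All 8 epithelial markers were detected in each group, and their part in the Ccl25 values was not tested.

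The fitted Hoil1-/- Il4ra f/f libraries without Cxcl1 counts had epithelial sums of 29349.6 and 24585 CPM. Hoil1+/+ Il4ra ΔIEC replicates 1 and 2 had sums of 34536 and 35254 CPM, and 13.7 and 8.01 CPM of Cxcl1. The former 2 libraries also held the highest sums of 6 tuft cell markers, 615 and 856 CPM, against at most 69.1 CPM elsewhere in the CD45- fraction. The part of epithelial or tuft cells in the Cxcl1 values was not tested.

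Cxcl12 was at 41.8, 296 and 187 CPM in Hoil1+/+ Il4ra f/f, 41.5 and 94.6 in Hoil1-/- Il4ra f/f, 104, 73.1 and 341 in Hoil1+/+ Il4ra ΔIEC and 425, 435 and 75.3 CPM in Hoil1-/- Il4ra ΔIEC libraries. Every genotype overlapped another, and the Hoil1 difference was -0.25 ± 0.60 (SE, edgeR adjusted p = 1.00). The left-out Hoil1-/- Il4ra f/f library had 773 CPM, the highest level, beside a fibroblast marker sum of 7028 CPM, and the 2 highest fitted libraries had sums of 5974 and 8674 CPM against at most 4233 CPM in the other fitted libraries. In fitted libraries with 187 CPM or more of Cxcl12, the sum of 6 blood endothelial markers was at 6365 to 14358 CPM. It was at most 5372 CPM in the other fitted libraries and 7178 CPM in the left-out library. The part of fibroblast or endothelial cell number was not tested.

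The remaining CD45- ligands with steady counts did not separate by Hoil1. Cx3cl1 was the least variable, with a log2 difference of 0.0064 ± 0.21 (SE, edgeR adjusted p = 1.00). Its interaction reached an unadjusted p of 0.046 (-0.96 ± 0.43, edgeR adjusted p = 0.23), where 20.7% of all genes had one under 0.05. Ccl28 differed by -0.49 ± 0.42 and Ccl6 by 0.33 ± 0.63. Ccl9 differed by 1.22 ± 0.61 (edgeR adjusted p = 0.93), at 12.4 to 181 CPM in Hoil1-/- and 27.3 to 91.5 CPM in Hoil1+/+ libraries. Cxcl16 differed by 0.20 ± 0.31. In f/f mice alone, 5 of the 28 genes, Ccl9 and Cxcl16 among them, were higher in every fitted Hoil1-/- than in every Hoil1+/+ library, and 5 were lower. Of all genes, 33.9% were separated there in either direction. With the left-out library, 0 were higher and 1 was lower. In ΔIEC mice 1 gene was higher and 1 lower, where 11.3% of all genes were separated.

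**Figure D5:**
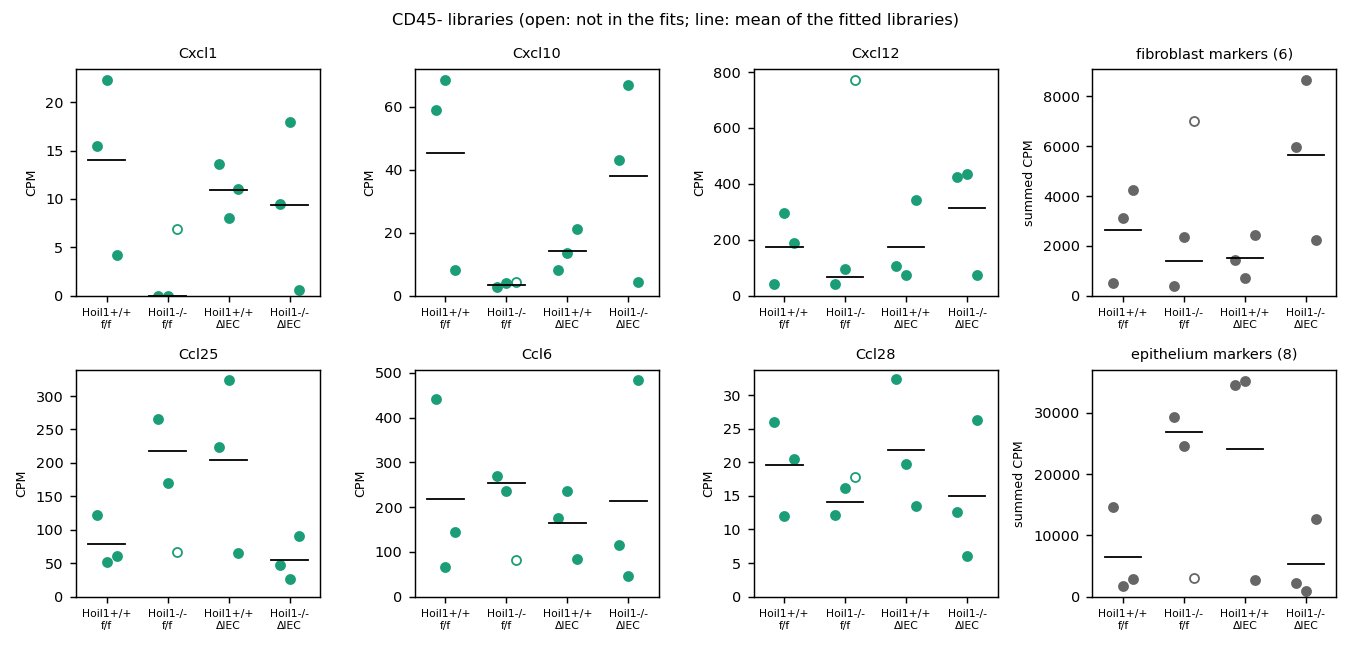
CPM of 6 ligands and summed CPM of 6 fibroblast and 8 epithelium markers in the 12 CD45- libraries by genotype, each point being a library, open points the library left out of the fits and lines the mean of the fitted libraries. Cxcl1 is at 0 in both fitted Hoil1-/- Il4ra f/f libraries and at 6.91 CPM in the open one, Cxcl10 is at or below 4.46 CPM in all 3, and Ccl25 is highest where the epithelial sum is highest.

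In ΔIEC mice, 3 of the 28 genes had an unadjusted p under 0.05 for Hoil1 in the CD45- fraction (Ccl25, Cxcl13 and Ccr10), where 7.66% of all genes had, and in f/f mice 2 (Cxcl1 and Cxcl10), where 13.1% had. Other genes with small p-values in the CD45- fraction had counts in a few libraries only. Ccl20 was seen at 0.624 and 0.724 CPM in Hoil1+/+ Il4ra f/f, at 3.94 and 0.316 CPM in Hoil1+/+ Il4ra ΔIEC and at 0.298 CPM in 1 Hoil1-/- library (edgeR adjusted p for Hoil1 = 0.93). Cx3cr1 was seen in 6 of 11 and Ccr10 in 6 of 11 fitted libraries, at no more than 4.42 and 3.01 CPM. Ccr9 and Cxcr5, next after Cxcl1 for Il4ra, had counts in ΔIEC libraries only, of at most 2.29 and 3.81 CPM (edgeR adjusted p = 0.81 for both), and their f/f libraries were all at 0.

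Grouped by function, no list had a gene past the adjusted test. For Hoil1 in the CD45+ fraction, the 9 genes of the axes between epithelium and lymphocytes included 2 with a higher and 6 with a lower level among the 8 with counts in every group (median log2 difference -0.21), the lymphoid organizer genes 4 and 1 of 5 (0.47), the type 1 and T cell effector genes 1 and 6 of 7 (-0.29), the neutrophil genes 3 and 1 of 4 (0.15) and the monocyte genes 3 and 4 of 7 (-0.027). Of the 14 ligands named as NF-κB targets, 5 were higher and 8 lower among 13 (-0.18). In the CD45- fraction the same list had 2 higher and 4 lower of 6 (-0.57), beside a median of -0.049 over all genes, the monocyte genes 3 and 1 of 4 (0.77) and the type 1 genes 0 and 3 of 3 (-0.95). All these medians rest on few genes. Of the 25 other pathway genes, 0 passed in any genotype comparison (edgeR, 25 tested in the CD45+ and 21 in the CD45- fraction).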

How the data were processed

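Gene counts of 24 libraries were analysed as the authors deposited them: per the labels and the methods of the study, raw read counts per gene from featureCounts after alignment to mm10 (GRCm38) with STAR, from poly-A selected, strand-selected libraries amplified by PCR. Versions, and the counting of reads shared between copies, are not given in the sources used here. Of 39056 genes, 38872 matched GENCODE M21, 34299 with the same version. Genotype comparisons were fitted within each fraction (10 CD45+ and 11 CD45- libraries) and fractions over 21 libraries, with edgeR 4.0.16 (R 4.3.3): group means, filterByExpr (minimum count 10, total 15), TMM, quasi-likelihood test and Benjamini-Hochberg adjustment over all genes tested, threshold 0.05. Replicate numbers follow accession order. Levels are CPM with TMM factors over 24 libraries, and RPKM divides by the exon union. Depths are 6.03 to 76.8 M counts per library. Alternatives were all libraries, RLE size factors, no filter, DESeq2 1.42.0, a likelihood ratio test, leaving out 692 immunoglobulin and T cell receptor segment genes and leaving out each library. The scripts were tested on simulated data: of 100 genes changed 4-fold each, 55.0% were called in the CD45+, 46.0% in the CD45- and 52.0% in the fraction comparison. The genes and lists were chosen with earlier results of these data known. Genes with values are those of the lists, those past the threshold, and those with the smallest p-values (5 for Hoil1, 3 for Il4ra and 3 for the interaction, per fraction) or largest fraction differences (up to 8 per direction). Genes at 0 in a group get a bound against 3 counts instead of a fitted fold. Values of 1 gene of the set are not reported here, and it was left out of the figures, while counts and medians over genes include it.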

Additional observations from a re-analysis of the deposited data

How the results depend on the processing

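The counts of genes higher in CD45+ and in CD45- libraries, 30 and 5, were 29 and 6 with all libraries, 30 to 32 and 5 under the other settings, and 27 to 32 and 4 to 5 when each library was left out in turn. The genotype comparisons, with 0 genes called by the main test, stayed at 0 with all libraries, RLE size factors, no filter and without segment genes. DESeq2 called 4 genes in CD45+ for Hoil1 in f/f, 1 for Hoil1 in ΔIEC, 3 for Il4ra and 2 for the interaction. Of all genes it called 0.529%, 0.887%, 1.81% and 0.916% in these comparisons. In CD45- it called 1 for Hoil1 averaged, 2 for Hoil1 in f/f, 1 for Il4ra and 3 for the interaction. There it called 1.01%, 3.57%, 0.924% and 8.42% of all genes. The likelihood ratio test called 1, 1, 2 and 2 genes in CD45+ and 1, 2, 1 and 3 in CD45- in the same order. Its shares of all genes were 0.388%, 0.299%, 1.18% and 0.399% in CD45+ and 0.821%, 2.13%, 0.869% and 7.43% in CD45-. Leaving out each library gave 0 to 2 calls for the CD45- interaction, the 2 being Cxcl1 and Ccl25 without Hoil1+/+ Il4ra ΔIEC replicate 3, and 0 in the other comparisons. In the fit without that replicate, 7.48% of all genes were called. The causes were not tested. Among the genes chosen by smallest p-value or largest fraction difference, the direction turned for Cx3cr1 (CD45+, Hoil1) with all libraries, to 0.055 on the log2 scale. It also turned for Ccr10 (CD45-, Hoil1) over the fits without single libraries, from -0.0029 to 4.08. With 2 fitted libraries in some groups and 3-count floors of up to 0.410 CPM in CD45- libraries, genes below 1 CPM there could not be compared. No paired analysis was possible because replicate numbers were given in accession order and the labels pair no libraries.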
